A study of Mus musculus with 4 samples.

Results

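The genes described here are Cldn11, Spink13, Zfp773, Dapl1, Synpr, Aass and Rarres1, 7 of the 38457 mouse genes in the deposited count tables. They were chosen by name because earlier results of these data showed them raised in beta-like cells of 1 library, the one labelled Sin3A mutant whose title ends in _3165. The values that chose them are therefore given as a description, with no test. The data come from inDrop, a droplet method that counts the 3′ ends of messenger RNAs in single cells, applied to dissociated mouse pancreatic islets. There were 2 libraries labelled WT and 2 labelled Sin3A mutant, which the series counts as 2 biological replicates. The titles end in _2426 or _3165, and each ending occurs once under each label. The pair with _2426 is called A and the pair with _3165 is called B, so that WT A is the library labelled WT in pair A. Runs of 4 values give pair A and then pair B, with the library labelled WT before the labelled mutant. The sources used here name no allele, no Cre and its promoter, no cell type in which Sin3A was changed, no age of the mice and no meaning of the title numbers.

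Beta cells are the insulin-producing endocrine cells of the islet, and alpha, delta and pp cells secrete glucagon, somatostatin and pancreatic polypeptide. Sin3A is the scaffold of a histone deacetylase complex that is recruited to genes by DNA-binding factors and is best known for repressing them. The 7 genes belong to no common pathway. Cldn11 encodes a claudin, a protein of tight junction strands, known from myelin and from the Sertoli cells of the testis. Spink13 encodes a serine protease inhibitor of the Kazal type, and Rarres1 a membrane protein induced by retinoids and related to latexin. Synpr encodes synaptoporin, a synaptic vesicle protein of the physin family. Aass encodes the mitochondrial enzyme that begins the breakdown of lysine. Zfp773 encodes a zinc finger protein, and Dapl1 a small protein related to death-associated protein.

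The tables held 1302, 1323, 1878 and 2445 barcodes with 12835199, 9282495, 10350699 and 12236110 counts, and 6526 cells were kept, with median counts per cell of 9997, 7605, 5306 and 4448.5. Between 12 and 42 barcodes were shared by any pair of libraries. The libraries stood apart from one another in the main cell type. Most beta-like cells of WT A lay in cluster 0 (427 of 497), those of mutant A in cluster 1 (403 of 568), those of WT B in cluster 11 (553 of 662) and those of mutant B in cluster 10 (629 of 710), although the 7 genes were left out of the clustering. Insulin transcripts made up a median of 15.1%, 29.3%, 7.95% and 3.24% of the counts of a beta-like cell, and mitochondrially encoded transcripts 5.35%, 3.41%, 6.79% and 9.95%. The library in which the 7 genes were high was thus the one with the lowest insulin share and the highest mitochondrial share, and the part of either in the results was not tested. Sin3a itself stood at 26.1, 41.55, 41.8 and 18.2 CPM (counts scaled to a total of 1000000 per class and library) in beta-like cells. By CPM it was lower in the labelled mutant within B and higher in the labelled mutant within A, against the label. By share of cells with a Sin3a count, at unequal depth, it was lower in mutant A, at 14.96% of cells against 24.35% in WT A. In alpha-like cells its CPM had the same directions, at 40.0, 57.6, 45.7 and 24.1. Which part of Sin3a was altered is not stated, and a 3′ tag outside that part checks nothing. Each direction below is therefore that of the libraries so labelled.

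The genes lie apart in the genome. In GENCODE release M21 on GRCm38, Cldn11 (ENSMUSG00000037625) spans 31149920 to 31164324 of chromosome 3, plus strand, with 3 exons. Rarres1 (ENSMUSG00000049404) is on the same chromosome at 67478972 to 67515523, minus strand, with 6 exons. Zfp773 (ENSMUSG00000063535) occupies 7127073 to 7136755 of chromosome 7, minus strand, with 4 exons, and Dapl1 (ENSMUSG00000026989) 59484653 to 59505020 of chromosome 2, plus strand, with 4 exons. Synpr (ENSMUSG00000056296) occupies 13284780 to 13616340 of chromosome 14, plus strand, with 6 exons in its principal transcript. Aass (ENSMUSG00000029695) occupies 23072173 to 23132986 of chromosome 6, minus strand, and has 24 exons. Counted tags come from the 3′ end, which for Cldn11 is the exon from 31163076 to 31164324.

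Because these genes were high in the same library, their promoters are shown for what they hold in common. The sequences are the 250 bases before the transcript start, read from RefSeq's promoter table on GRCm38.p6 and written 5′ to 3′ on the gene's strand. Entries were found for 6 of the 7 genes, with 2 starts for Synpr. Capitals mark matches, on either strand, to the 7 motifs searched: the CCAAT box, the TATA box TATAAA, the GC box GGGCGG, the E box CACGTG, the cyclic AMP element TGACGTCA, the nuclear receptor motif AGGTCA and the homeodomain motif TAATTA. The windows are chr3:31149670-31149919 (plus strand) for Cldn11, chr7:7136756-7137005 (minus strand) for Zfp773, chr14:13284530-13284779 (plus strand) for the first start of Synpr, chr6:23132987-23133236 (minus strand) for Aass and chr2:59484403-59484652 (plus strand) for Dapl1.
Cldn11: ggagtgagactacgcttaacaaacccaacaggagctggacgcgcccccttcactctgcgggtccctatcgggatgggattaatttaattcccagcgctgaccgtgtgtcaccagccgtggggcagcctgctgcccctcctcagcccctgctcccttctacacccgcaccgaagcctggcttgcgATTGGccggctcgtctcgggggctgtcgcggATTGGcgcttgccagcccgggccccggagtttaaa
Zfp773: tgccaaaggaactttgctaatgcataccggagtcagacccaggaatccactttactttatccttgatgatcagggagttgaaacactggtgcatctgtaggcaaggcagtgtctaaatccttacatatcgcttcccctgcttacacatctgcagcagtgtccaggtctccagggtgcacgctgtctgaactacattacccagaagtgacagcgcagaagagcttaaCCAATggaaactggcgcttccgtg
Synpr: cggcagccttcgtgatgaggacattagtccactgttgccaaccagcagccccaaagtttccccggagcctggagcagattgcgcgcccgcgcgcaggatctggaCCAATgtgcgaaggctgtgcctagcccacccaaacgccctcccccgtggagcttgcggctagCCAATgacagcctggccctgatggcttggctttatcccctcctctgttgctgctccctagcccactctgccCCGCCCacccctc
Aass: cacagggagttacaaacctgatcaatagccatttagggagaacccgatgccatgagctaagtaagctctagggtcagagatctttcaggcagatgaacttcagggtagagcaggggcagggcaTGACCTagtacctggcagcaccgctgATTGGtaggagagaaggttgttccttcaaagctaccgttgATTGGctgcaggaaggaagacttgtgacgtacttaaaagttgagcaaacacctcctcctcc
Dapl1: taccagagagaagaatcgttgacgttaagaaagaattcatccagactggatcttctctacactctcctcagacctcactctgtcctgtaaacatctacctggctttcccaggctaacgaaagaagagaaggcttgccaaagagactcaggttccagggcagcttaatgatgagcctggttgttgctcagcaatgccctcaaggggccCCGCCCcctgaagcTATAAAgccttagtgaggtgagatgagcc
The CCAAT box, known as the binding motif of the factor NF-Y, occurred in 4 of the 6 matched genes. Cldn11 held 2 matches, beginning 66 and 35 bases before the start, Synpr 2 at 146 and 84 bases, Aass 2 at 101 and 61 bases and Zfp773 1 at 24 bases. Of 32851 promoters of the same length, 33.9% held CCAAT on either strand. Dapl1 held no CCAAT but a TATAAA at 29 bases, a motif of 12.4% of promoters, and a GGGCGG on the other strand at 43 bases. Rarres1 held GGGCGG alone, 2 matches at 24 and 10 bases, and 32.7% of promoters hold that motif. The second Synpr start held none of the 7 motifs, and Aass alone held AGGTCA, which 14.0% of promoters hold. These are matches of letters and a description of the windows, with no test.

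Cldn11 had the highest ratio of mutant B to the next library among the 7 genes. In beta-like cells it stood at 26.4 CPM in WT A, 6.54 in mutant A, 26.4 in WT B and 441 in mutant B, from 166, 31, 106 and 2018 counts. Mutant B stood alone, 16.7 times the highest other library, and its 95% Poisson interval of 422 to 461 CPM lay far from 22.6 to 30.8 in WT A (these intervals cover counting error only). Rarres1 had far fewer counts, 7, 0, 0 and 51, which give 1.11 CPM, 0, 0 and 11.15 CPM. Its 2 libraries at 0 allow up to 0.633 and 0.747 CPM, the level of 3 counts. Restricting the cells to those with at most 10% mitochondrial counts moved Rarres1 in mutant B to 18.0 CPM, 1.61 times the value given.

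Spink13 and Zfp773 were low and close to equal in the other 3 libraries. Spink13, the protease inhibitor, stood at 3.82, 5.27, 3.24 and 34.3 CPM from 24, 25, 13 and 157 counts. The Poisson intervals of the 3 lower libraries overlapped one another, from 1.72 to 7.78 CPM, and that of mutant B ran from 29.2 to 40.2. Zfp773, the zinc finger gene, was at 5.09, 5.7, 8.47 and 73.7 CPM from 32, 27, 34 and 337 counts. Mutant B was thus 6.51 times the next library for Spink13 and 8.70 times for Zfp773, and for both genes the Poisson intervals of WT A and mutant A overlapped.

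Dapl1, Synpr and Aass were high in a second library, WT A. Dapl1 stood at 21.8, 6.12, 4.73 and 96.7 CPM from 137, 29, 19 and 442 counts, so that mutant B exceeded WT A by a factor of 4.43. In WT A 9 of 497 beta-like cells, with 5 or more Dapl1 counts each, held 74.45% of its counts. Synpr, the vesicle protein, was at 102.0, 13.7, 42.1 and 206 CPM from 641, 65, 169 and 944 counts, and Aass, the lysine enzyme, at 92.8, 5.7, 7.97 and 190.5 CPM from 583, 27, 32 and 871 counts. Mutant B exceeded WT A by 2.02 times for Synpr and 2.05 times for Aass, while mutant A and WT B were far lower for Aass. Aass was thus high in 2 libraries with different labels, whereas Spink13 and Zfp773 were high in 1.

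Few genes of any kind had such an excess. Of 13750 genes with at least 50 counts over the 4 libraries, 5 were at least 4 times higher in beta-like cells of mutant B than in the highest other library, 0.0364%, and those 5 were Cldn11, Spink13, Zfp773, Dapl1 and Rarres1. As the choice of members used these values, nothing follows from that overlap. The next genes in order were Gc, the vitamin D-binding protein, at 10.98, 3.797, 6.72 and 34.8 CPM (3.17 times), and Tph1, the rate-limiting enzyme of serotonin synthesis, at 37.6, 4.22, 3.99 and 116.8 CPM (3.11 times). Man2a1, a mannosidase of the Golgi, followed at 53.3, 24.5, 57.0 and 175 CPM, and Ntn4, Gimap6, Bid, Txnrd3 and Tram1l1 stood between 2.94 and 2.60 times the highest other library, of 7669 genes with at least 50 counts in mutant B.

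**Figure D1:**
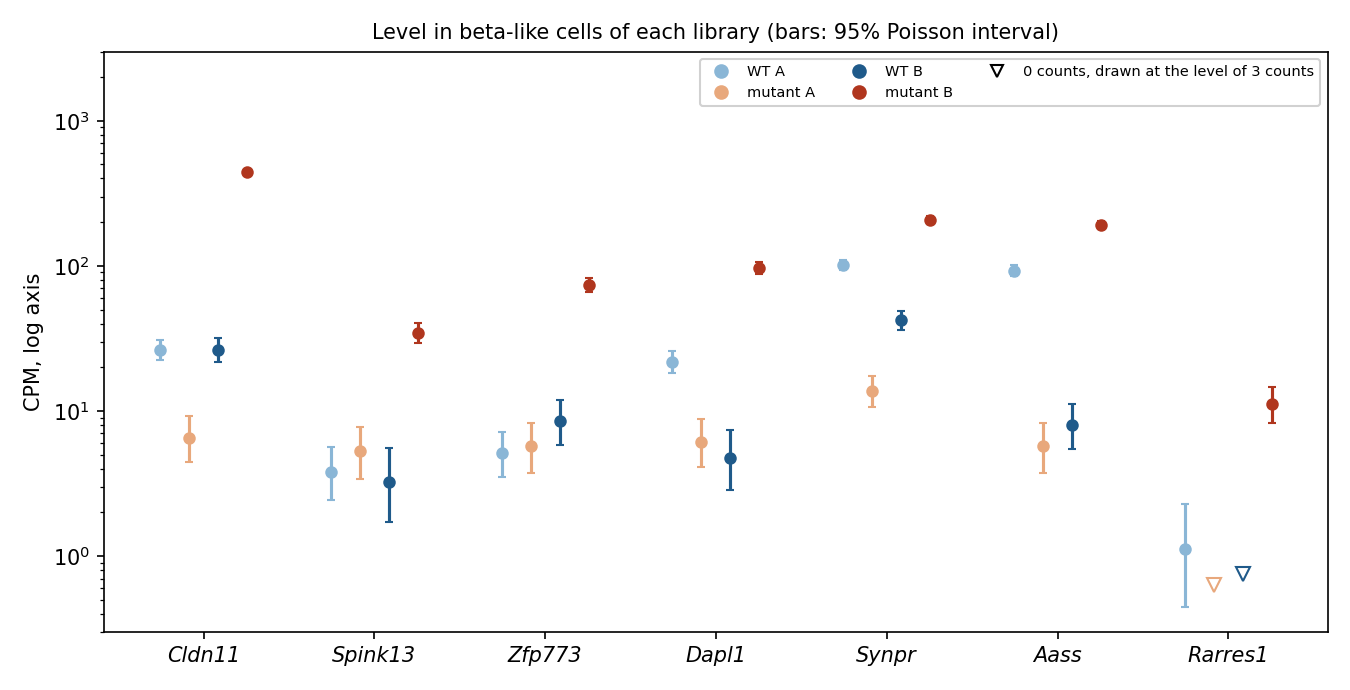
Level of each gene in beta-like cells of each library, in CPM on a log axis, with 95% Poisson intervals as bars; open triangles mark 0 counts and are drawn at the level of 3 counts. Mutant B is the highest library for all 7 genes, at 441 CPM for Cldn11, and WT A is the next for Dapl1, Synpr, Aass and Rarres1.

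All 7 genes were higher in the labelled mutant within B, and within A 4 of them (Cldn11, Dapl1, Synpr and Aass) were at least 2-fold lower in it. Within B the ratio of mutant to WT was 16.7 for Cldn11, 10.6 for Spink13, 8.70 for Zfp773, 20.4 for Dapl1, 4.90 for Synpr and 23.9 for Aass, and at least 14.9 for Rarres1. Within A the ratio was 0.248 for Cldn11, 0.281 for Dapl1, 0.134 for Synpr and 0.0614 for Aass. It was 1.38 for Spink13 and 1.12 for Zfp773, with overlapping Poisson intervals. For Rarres1 it was at most 0.568, and there too the intervals overlapped, at 0.448 to 2.295 CPM in WT A and 0 to 0.778 in mutant A. The Rarres1 bounds, here and within B, set 0 counts to 3 counts and leave out the counting error of the other library. Of 15543 genes with at least 20 counts over pair A, 8.09% were at least 2-fold lower in mutant A and 18.1% at least 2-fold higher. Among the 6 members with enough counts, Cldn11, Dapl1, Synpr and Aass, 4 genes, were in the lower set and 0 in the higher. Each ratio compares 1 library with 1 library and has no replicate check.

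That opposition was not confined to the members. It was described over the 13432 genes with at least 50 counts over the 4 libraries and 5 or more in every library. Their log2 ratios within A and within B were correlated at r = -0.663. That is a description across genes of 1 pair of libraries each, in which genes are not independent replicates. Of these genes 392 (2.92%) were at least 2-fold lower in mutant A and at least 2-fold higher in mutant B, and 785 showed the reverse, against 13 raised and 6 lowered at least 2-fold in both. Sin3a was among the genes that went opposite ways, by 0.67 within A and by -1.21 within B on the log2 scale. Counting without the insulin genes moved the median gene within A from -0.13 to 0.13 and within B from -0.10 to -0.16 on the log2 scale. On that scaling Cldn11 stood at 31.1, 9.2, 28.9 and 461 CPM and Aass at 109.4, 8.01, 8.72 and 199 CPM, in the same order as before.

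**Figure D2:**
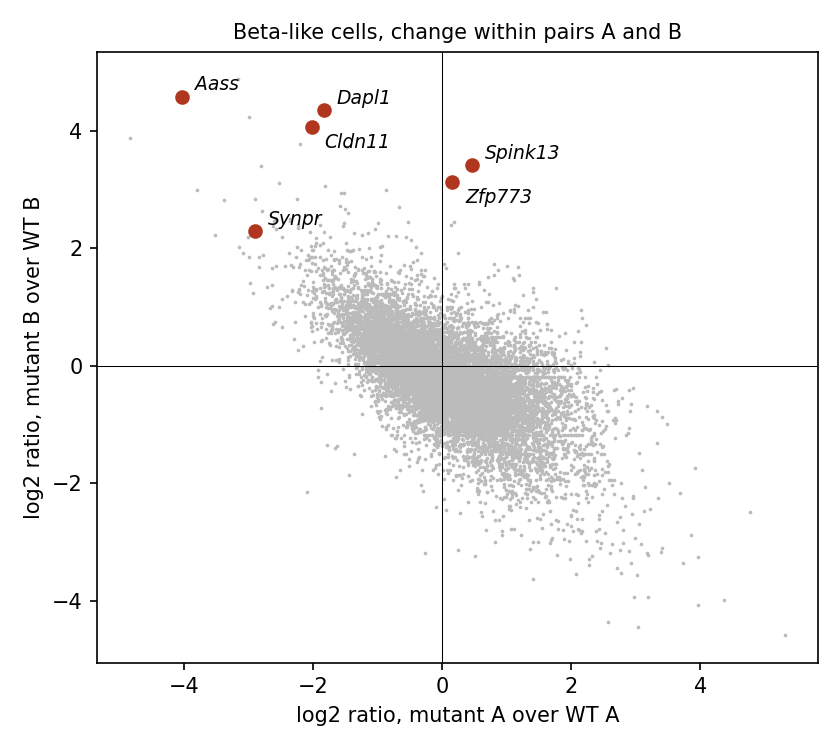
Log2 ratio of labelled mutant to WT in beta-like cells, within A on the horizontal axis and within B on the vertical axis, for 13432 genes (grey) and the 6 members with enough counts (red). Cldn11, Dapl1, Synpr and Aass lie at the upper left, and Spink13 (0.47, 3.41) and Zfp773 (0.16, 3.12) stand near 0 on the horizontal axis.

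Over both pairs of libraries 0 genes passed the test between the labels, which with 2 libraries a label does not show that none differed. Without WT A it called 1 beta-like, 1 alpha-like and 14 delta-like genes, and without mutant A 6 alpha-like genes, none of them members. In beta-like cells edgeR's quasi-likelihood test called 0% of 14926 genes (Benjamini-Hochberg adjusted p under 0.05), and 9 genes were higher and 1 lower by an unadjusted p under 0.05. DESeq2 on the same sums called 0, with 15 higher and 2 lower unadjusted. In alpha-like cells edgeR called 0% of 10494 genes (7 higher and 3 lower unadjusted, 11 and 4 by DESeq2, which called 0). In delta-like cells it called 0% of 9439 (4 and 6, and 3 and 4 by DESeq2, which called 0). The lists of related genes, chosen with earlier results of these data known, gave the following. The claudin and tight junction list had 15 of 25 genes tested, with a median log2 difference of -0.03 against 0.02 over all genes, lysine degradation 9 of 12 with a median of -0.16, the synaptic vesicle list 12 of 14 with a median of -0.003, and retinoid handling 13 of 21 with a median of 0.21. In each of these lists 0 genes passed in either direction. The label comparison averages over pairs A and B, in which changes often ran in opposite directions. A median near 0 therefore does not show that the genes of a list were unchanged. None of the 11 Kazal inhibitor genes beside Spink13 was tested, since their counts were too low.

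Genes related to the members by function had the following levels. Jam3, a junctional adhesion molecule, was at 17.8, 10.8, 15.4 and 38.9 CPM in beta-like cells and Cldn3, another claudin, at 13.5, 10.6, 23.2 and 13.1 CPM. Of 15 tight junction genes with at least 50 counts, 1, Jam3, was at least 2-fold above the highest other library in mutant B and 1, Cldn4, was at least 2-fold below the lowest, against 0.655% and 3.89% of all 13750 genes. Echs1 and Aldh7a1, which act further down lysine breakdown, stood at 88.5, 25.7, 31.1 and 57.1 CPM and at 29.1, 13.9, 17.4 and 20.8 CPM, both highest in WT A. Syngr3 and Sv2c, vesicle proteins like Synpr, had levels of 1.11, 4.64, 2.99 and 1.97 CPM and of 5.25, 10.3, 6.47 and 5.69 CPM. Cyp26b1, an enzyme that degrades retinoic acid, was at 1.27, 4.22, 2.74 and 2.62 CPM, and Dhrs3, a retinal reductase, had fewer than 50 counts in all.

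Genes of beta cell state differed between the libraries in their own ways. Ins1 stood at 82400, 173900, 40110 and 18580 CPM and was at least 2-fold under the lowest other library in mutant B, as was Prss53, 2 of the 14 measured genes of the maturity list. Ucn3, a peptide of mature beta cells, was at 202, 455, 976 and 246 CPM. Igfbp5, of the immaturity list, was at 46.3, 12.7, 13.9 and 28.4 CPM, and Gast, the gastrin gene of that list, had fewer than 50 counts in all. In the list of growth and pregnancy genes Tph1 was the only gene of 11 at least 2-fold over the highest other library in mutant B. Ccnd1 and Mki67 were at least 2-fold under the lowest, while Ccnd2 stood at 948, 1786, 1689 and 1262 CPM. Mki67 is also a marker of cycling cells, and the cycling cluster was held apart from the beta-like class. Of all 13750 genes 0.655% were over and 3.89% under by these measures, and the list counts were not tested. Median log2 differences between the labels were -0.08 for maturity, 0.14 for immaturity and 0.11 for growth and pregnancy genes, with 0 genes past the test in each list. These medians, too, average over pairs with opposite changes, as Ins1 had, and do not show unchanged genes.

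The cell types differed in which members they held, as the plot of levels by class shows. Cldn11 was not restricted to beta-like cells. In alpha-like cells it stood at 42.8, 104.6, 143.6 and 177.8 CPM, from 46, 69, 308 and 273 counts. In the 3 libraries other than mutant B the alpha-like level was thus higher than that of beta-like cells, with Poisson intervals that did not overlap, and in mutant B it was lower. In WT A those intervals lay close, at 22.6 to 30.8 CPM in beta-like and 31.3 to 57.05 CPM in alpha-like cells. They cover counting error and not the spread between cells. The excess of Cldn11 in mutant B over WT B was 1.24 times in alpha-like cells and 16.7 times in beta-like cells. Gcg, the glucagon gene and defining marker of alpha cells, was at 778, 3777, 2774 and 1709 CPM in beta-like cells, highest in mutant A, where Cldn11 was lowest.

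In delta-like cells the picture lay between. Cldn11 was at 36.2, 53.1, 69.0 and 244 CPM and Synpr at 64.7, 34.9, 49.95 and 178 CPM. Zfp773 was at 4.75, 1.40, 7.14 and 54.3 CPM, from 8, 1, 3 and 62 counts. Of the delta-like cells 73, 39, 1 and 66 were rich in insulin, with an insulin share of 0.5 times the median beta-like cell of the library or more. Without those, Zfp773 stood at 1.76, 3.23, 7.18 and 50.6 CPM, from 1, 1, 3 and 32 counts, and Cldn11 at 14.1, 103.2, 69.4 and 205 CPM. Cldn11 in these cells was thus 7.31 times higher in the labelled mutant within A and 2.96 times within B, and mutant B was 1.99 times the next library. Aass stood at 118 CPM in the insulin-rich and at 23.7 CPM in the other delta-like cells of mutant B, and the part of beta cell RNA in these values was not tested. Spink13 had 9 counts in the insulin-rich and 3 in the other delta-like cells of that library, and in alpha-like cells 0, 0, 1 and 1 counts.

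A 4-fold excess in mutant B was also counted in 3 further classes. In the cycling cluster 7 of 10027 genes (0.0698%) had it, 4 of them members (Cldn11, Spink13, Zfp773 and Dapl1) of 6 tested. In delta-like cells 2 of 8519 genes (0.0235%) had it, with Zfp773 as 1 of 4 members tested, and in alpha-like cells 0 of 9467 (0%), with 0 of 2 members tested. The cells are different but the libraries are the same, so these classes are not replicates of the beta-like result. Members could also pass the filter of 50 counts over the 4 libraries through mutant B itself. In the cycling cluster Spink13 had 4, 8, 2 and 63 counts and Zfp773 5, 11, 10 and 55. In delta-like cells Zfp773 had 8, 1, 3 and 62 counts. Nothing therefore follows from the member counts beside the shares of all genes. The cycling cluster, led by proliferation genes, was mixed: its Gcg stood between 5232 and 33750 CPM. Cldn11 was there at 36.9, 25.2, 54.9 and 364 CPM, Aass at 122.5, 3.88, 0.742 and 193 CPM and Dapl1 at 17.6, 11.6, 11.1 and 96.9 CPM. All 3 were highest there in mutant B, as in beta-like cells, but Cldn11 exceeded the next library by 6.64 times against 16.7 in beta-like cells.

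The values in the smaller classes that follow rest on few counts. In endothelial-like cells Cldn11 stood at 16.6, 8.65, 14.1 and 12.6 CPM from 5, 3, 7 and 7 counts and did not stand out in mutant B. In ductal-like cells Aass was present in all 4 libraries at 31.8, 48.9, 22.5 and 24.3 CPM, from 5, 4, 11 and 18 counts, without an excess in mutant B. Cldn11 in ductal-like cells was at 0, 48.9, 49.0 and 99.8 CPM. In pp-like cells of mutant B Zfp773 reached 80.0 CPM from 22 counts and Rarres1 43.6 CPM from 12 counts, while the other libraries had at most 3 and at most 1. In erythroid-like cells Zfp773 had 0, 1, 0 and 11 counts, and the 11 counts, in 6 of 15 cells of mutant B, gave 238 CPM with a Poisson interval of 119 to 425.

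**Figure D3:**
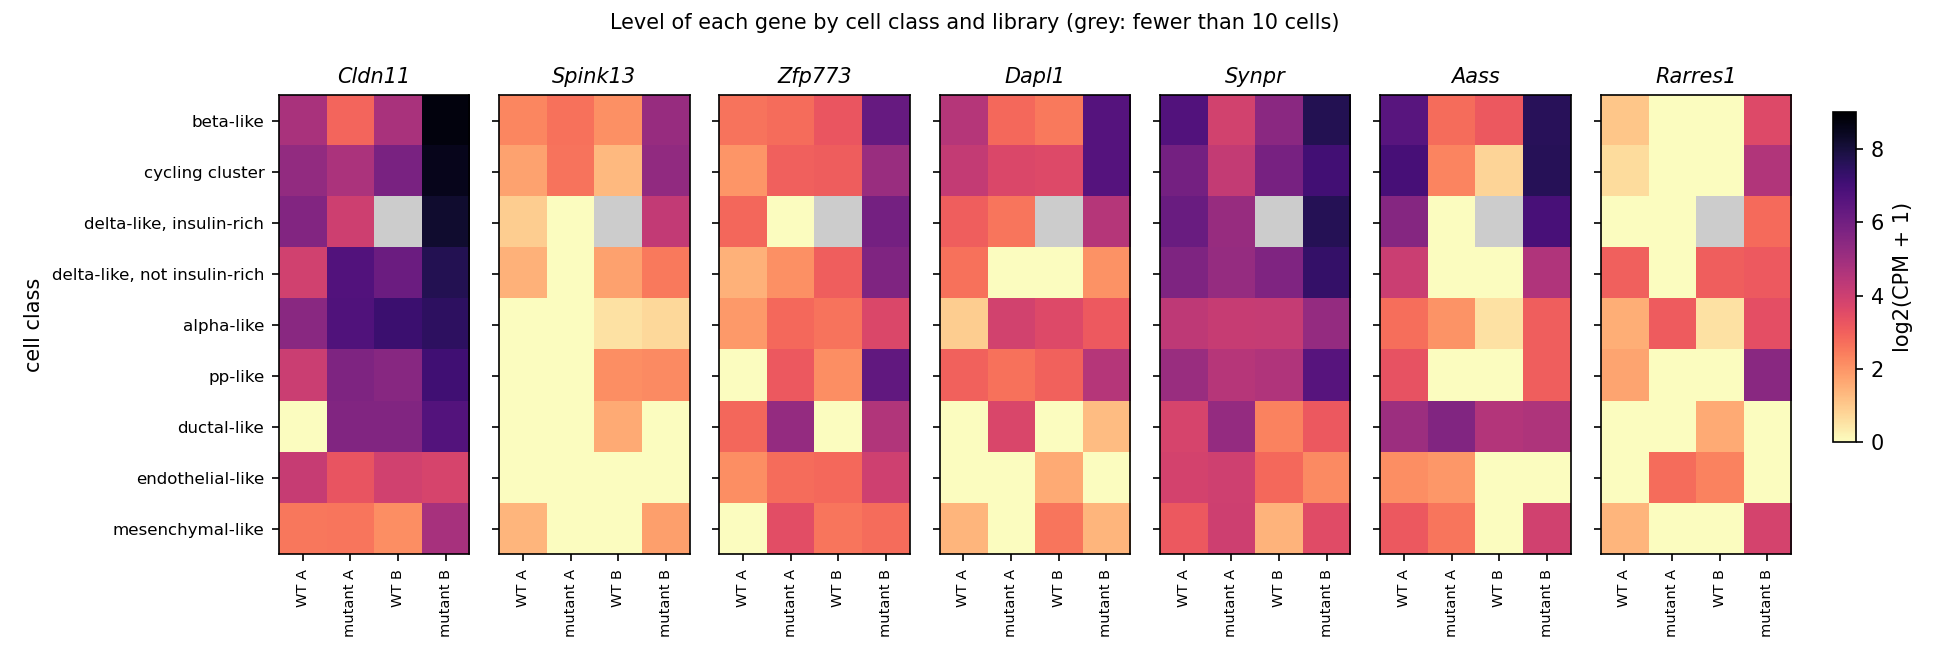
Level of each gene in each cell class (rows) and library (columns), as log2(CPM + 1) on a common colour scale, grey where a class had fewer than 10 cells. Cldn11 is dark in alpha-like cells of every library, while Spink13 and Dapl1 are dark mainly in beta-like cells and in the cycling cluster of mutant B.

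By number of cells, too, mutant B was the highest library. Each cell was thinned to 2000 counts to give cells an equal total, and shallower cells were left out (44, 123, 87 and 35 beta-like cells). Insulin counts are part of that total, at a median of 29.3% of a beta-like cell in mutant A and 3.24% in mutant B. The part of this difference in the shares was not tested. Of the rest 27.4% (124 of 453), 6.29% (28 of 445), 16.0% (92 of 575) and 65.6% (443 of 675) had at least 1 of the 7 genes. The exact Clopper-Pearson 95% interval was 61.9% to 69.2% in mutant B and 23.3% to 31.7% in WT A. Without thinning the share in mutant B was 85.8%. At least 2 of the genes were found in 3.97%, 0%, 1.22% and 28.6% of cells, where 0 of 445 cells allows a share of up to 0.674% (3 cells of the total; the exact upper bound is 0.826%), and at least 3 in 7.41% of cells of mutant B. In classes outside the endocrine cells the shares with at least 1 gene were 1.89%, 11.1%, 5.80% and 5.08% in endothelial-like cells, at median depths of 4473, 6429, 6158 and 3936 counts against 13365, 10040, 6327 and 6336 in beta-like cells. They were 3.70%, 7.27%, 2.90% and 10.1% in mesenchymal-like and 10.7%, 33.3%, 9.09% and 18.9% in ductal-like cells, where the 33.3% is 4 of 12 cells. The 6.29% of beta-like cells of mutant A was within the interval of its endothelial-like cells (3.71% to 24.1%, from 5 of 45 cells deep enough to thin). Of all endothelial-like cells of mutant A 7 of 54 were rich in insulin, and the parts of doublets and free RNA were not tested.

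Most cells of mutant B showed few of the genes. Synpr was detected in 28.4% of its thinned beta-like cells, Cldn11 in 24.9%, Aass in 23.9%, Zfp773 in 11.7%, Dapl1 in 8.15%, Spink13 in 4.44% and Rarres1 in 1.33%. The counts were unevenly spread among cells. The 36 highest cells (5% of 710) held 76.2% of the Dapl1 counts and 56.0% of the Cldn11 counts but 26.5% of the Synpr counts, and 1 cell held 61 Cldn11 counts. Before thinning Cldn11 was found in 257 of 710 cells, and 103 of them, with 5 or more counts each, carried 86.7% of its counts. Rarres1 came from 20 cells only, and 2 of them held 31.4% of its counts.

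**Figure D4:**
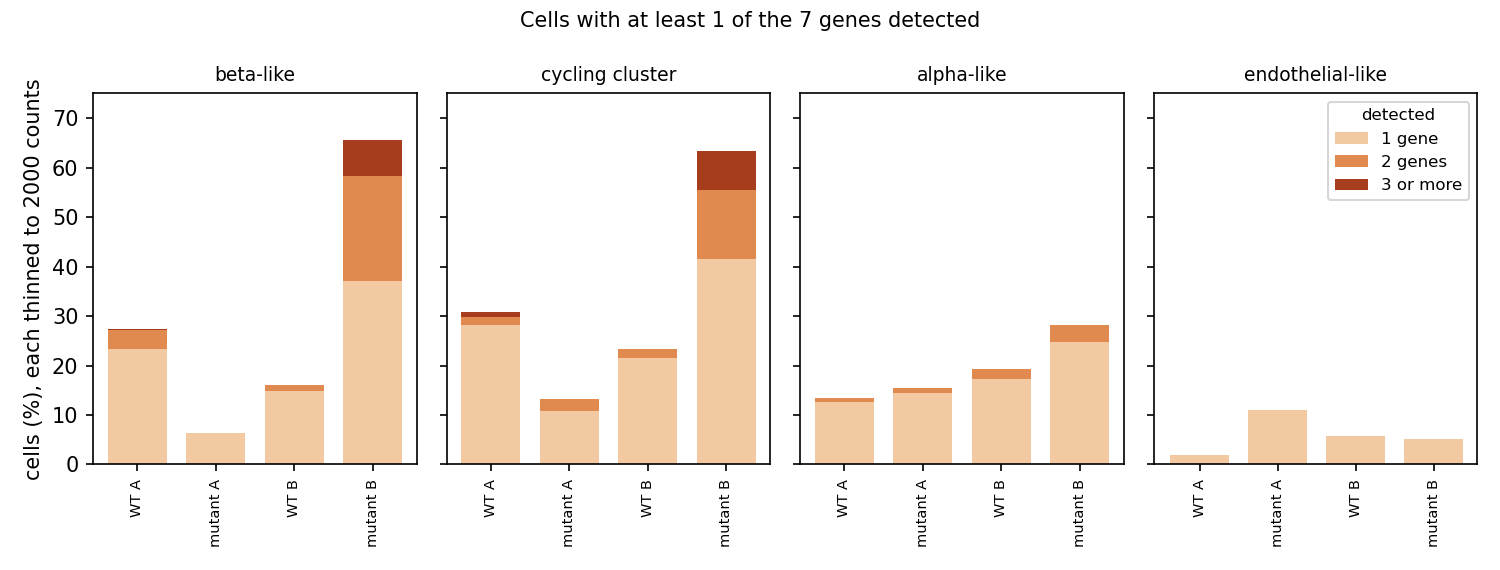
Share of cells, in percent, in which 1, 2 or at least 3 of the 7 genes were detected after thinning to 2000 counts, for 4 classes and the 4 libraries. Beta-like cells reach 65.6% and the cycling cluster 63.3% in mutant B, alpha-like cells 28.1% and endothelial-like cells 5.08%. Delta-like and pp-like cells of mutant B, not drawn, reach 53.75% and 41.1%.

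Within cells the members were found together about as often as their shares give, with a few pairs above that. Among the 675 thinned beta-like cells of mutant B, 12 of the 21 pairs of genes were found together more often than the product of their shares gives, with a median ratio of 1.06. For 13 pairs this product was at least 5 cells, and 9 of these lay over 1. Dapl1 and Aass were found together in 25 cells against 13.1 (ratio 1.91), Cldn11 and Dapl1 in 24 against 13.7 (1.75) and Cldn11 and Aass in 52 against 40.1 (1.30). Synpr and Aass, the most often detected genes beside Cldn11, met in 45 cells against 45.8 (0.983), and Dapl1 and Synpr in 11 against 15.6 (0.703). Spink13 and Zfp773 shared 1 cell against 3.51. These are ratios over cells of 1 library, given with no p.

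**Figure D5:**
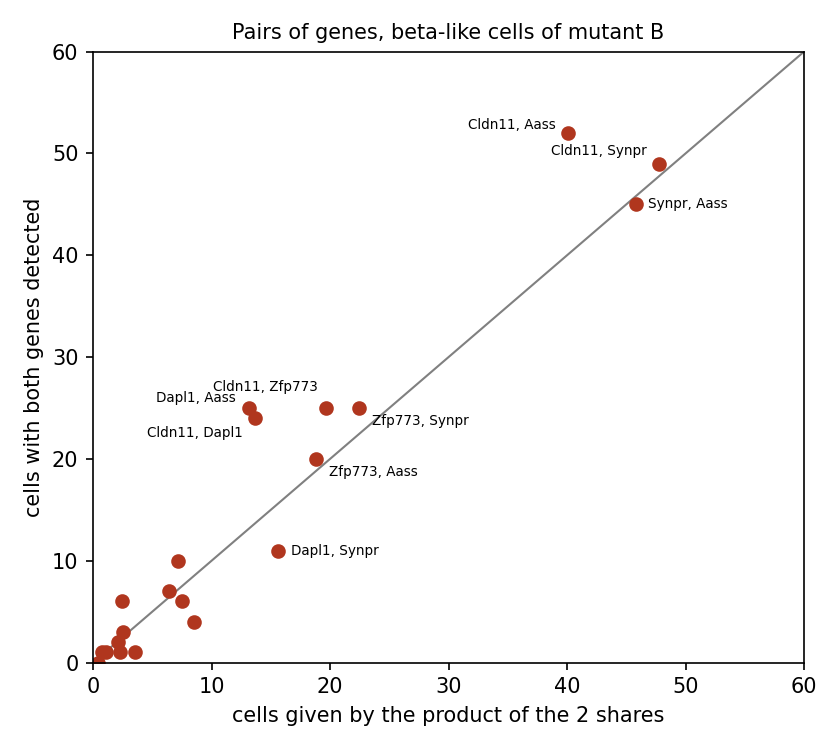
Number of beta-like cells of mutant B with both genes of a pair detected, against the number given by the product of the shares; the line marks equality. Cldn11 with Aass (52 against 40.1), Cldn11 with Dapl1 and Dapl1 with Aass lie above the line, and Dapl1 with Synpr lies below it.

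Cells with more of the genes had similar insulin and mitochondrial shares and a higher depth. Of the 675 cells 232 had 0 of the genes, 250 had 1, 143 had 2 and 50 had at least 3. Their median insulin share was 3.26%, 3.22%, 3.33% and 2.996%, and their median mitochondrial share 9.92%, 10.02%, 9.95% and 9.05%. Their median depth before thinning was 5982, 6385, 6501 and 7682 counts, and its part in the detection was not tested. Tph1 was found in 9.48%, 10.4%, 23.8% and 26.0% of these cells, and Ucn3 in 24.1%, 28.0%, 18.2% and 14.0%. The genes most correlated across these cells with the number of members detected were Hap1 (r = 0.20), Tph1 (0.19), Prkar1a, Wipi1, Ybx3, Ubr4, Scg3 and Iapp, of 5254 compared, and values this low in sparse counts are no finding.

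The level also differed between libraries within clusters. Among the 713 cells of cluster 10, the 56 cells from WT B had Cldn11 at 70.9 CPM and Aass at 0 counts, against 456 and 198 CPM in the 629 from mutant B. The 70.9 CPM rests on 11 counts. Median depth was 2377.5 counts in these WT B cells and 6297 in those of mutant B, so 0 counts of Aass do not exclude a low level. The 21 cells of mutant B that lay in cluster 0, with the cells of WT A, had Cldn11 at 552 CPM and Aass at 149 CPM. The other 21, which lay in cluster 11 with those of WT B, had Cldn11 at 40.9 CPM and Aass at 20.4 CPM but Synpr at 313 CPM. These groups are small, and 6 counts of Cldn11 stand behind the 40.9 CPM.

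Across cell classes the members had an incomplete likeness to each other. Over 37 sums of a class and library, log2(CPM + 1) of pairs of members correlated between r = 0.29 (Zfp773 and Aass) and r = 0.68 (Spink13 and Dapl1), points that share their libraries and depth. The genes most like the average of the 7, of 13147 compared, were Mycbp (r = 0.82), a partner of the MYC protein, Pdhb (0.77), a subunit of pyruvate dehydrogenase, Cds1 (0.77), an enzyme of phospholipid synthesis, and Mrps33 (0.76), a mitochondrial ribosomal protein. Bdh1 (0.76), a ketone body enzyme, Dynll2, Ankrd37 and Cltb (0.72 to 0.73) followed. In beta-like cells Mycbp stood at 89.4, 23.0, 42.1 and 151.8 CPM and Bdh1 at 97.2, 15.6, 39.9 and 126 CPM, the order of libraries seen for Synpr. Dynll2 stood at 382, 251, 555 and 668 CPM, with WT B above WT A, as it was for Cltb and Mrps33.

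Of the neighbouring genes in the genome, 0 reached the ratios of the members. Skil and Slc7a14, on either side of Cldn11, stood at 38.3, 31.2, 63.5 and 68.7 CPM and at 291, 193, 485 and 717.5 CPM in beta-like cells. Lxn, which encodes latexin and lies 15046 bases from Rarres1, was at 2.39, 4.01, 4.23 and 1.09 CPM and so was lowest in mutant B, while Mfsd1 on the other side was at 109.9, 42.8, 94.4 and 203 CPM. Zfp954 and Zfp418, zinc finger genes beside Zfp773, had levels of 9.71, 9.07, 8.97 and 6.34 CPM and of 4.93, 5.70, 4.73 and 3.94 CPM. Pkp4 and Tanc1 beside Dapl1 had levels of 94.0, 73.0, 95.4 and 89.0 CPM and of 15.3, 26.6, 27.9 and 29.3 CPM. Ptprz1 beside Aass was at 6.21, 6.33, 3.49 and 11.6 CPM and Cadps beside Synpr at 63.6, 44.3, 78.0 and 60.4 CPM. Spink13 (ENSMUSG00000073551) itself occupies 62607535 to 62741387 of chromosome 18, minus strand, with 5 exons. Spink7, Apcdd1, Sntn and Fezf1 had at most 8 counts in any library.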

How the data were processed

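The members and the gene lists were chosen with earlier results of these data known. The authors deposited a table of counts per gene and barcode for each library, whole numbers that were not normalized, per the values. The submitters' processing notes name the builds GRCm38 and GRCh38. The aligner, annotation and counting program: not given in the sources used here. Cells were captured by inDrop and RNA was amplified by CEL-Seq, per the labels' protocols. Of 38459 features the 38457 mouse ones were used.

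The cell filter asked for 500 counts, 250 genes and no more than 25% mitochondrial counts (6566 of 6948), and 40 called doublets by Scrublet (0.609%) were removed. Cells were clustered in scanpy 1.11.5 on 2000 variable genes without the 7 members (30 components, 15 neighbours, Leiden resolution 1, seed 1). Classes were named from marker lists. Cluster 17 scored highest for macrophage markers, but its leading genes held more of the granulocyte marker list than of the macrophage list. It is called by its number, and cluster 3, led by proliferation genes, is called the cycling cluster. Cluster 19 (186 cells, median depth 0.146 times that of its libraries) had own markers among its leading genes and stayed beta-like.

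Counts were summed per library and class, and CPM carry exact Poisson 95% intervals. Labels were compared with edgeR 4.0.16 (quasi-likelihood, TMM, filter on low counts, Benjamini-Hochberg), tested on simulated data, and with DESeq2 1.42.0. The series states 2 biological replicates, and p-values reflect the spread of these 4 libraries only. Ratios against 0 counts use a floor of 3 counts in the library and are given as bounds. Shares of cells use 1 random thinning to 2000 counts.

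Named genes followed a rule: the members, Sin3a, hormone genes as checks, the 2 genes of smallest unadjusted p in each list, the 8 genes most like the members (Pearson r of log2(CPM + 1), pseudocount 1, genes with at least 100 counts), the 8 of largest ratio, the 8 of highest correlation across cells and the nearest measured genes. Predicted genes were passed over. Alternatives covered DESeq2, filters, depth, mitochondrial and insulin limits, clustering resolution, leaving out libraries and the title number as a block.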

Additional observations from a re-analysis of the deposited data

Results flagged for a closer look

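In beta-like cells 4 members moved in opposite directions within the title numbers: they were at least 2-fold lower in the labelled mutant within A and at least 2-fold higher within B. The log2 ratio of mutant to WT within A was -2.01 for Cldn11, -1.83 for Dapl1, -2.90 for Synpr and -4.03 for Aass. Within B it was 4.06, 4.35, 2.29 and 4.58 in the same order. Each rests on 1 library a side, and the difference was not tested. Cells of WT A with 5 or more counts of a gene held 74.45% of the Dapl1 counts (9 of 497 cells). They held 60.2% for Cldn11 (12 cells), 58.5% for Aass (44) and 43.1% for Synpr (41). The WT A levels of Dapl1 and Cldn11 thus rest largely on few cells. Such concentration was not particular to WT A. In mutant B cells with 5 or more counts held 73.5% of the Dapl1 counts (33 of 710 cells) and 86.7% for Cldn11 (103). They held 49.6% for Aass (59) and 35.5% for Synpr (53).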

How the results depend on the processing

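The beta-like comparison of the labels gave 0 to 1 called genes when 1 library was left out, the alpha-like 0 to 6 and the delta-like 0 to 14. The 1 beta-like call, and 1 alpha-like call, was Mir6240 without WT A, the 6 alpha-like calls came without mutant A, and the 14 delta-like calls came without WT A and included Ins1 and Ins2. A lone library was there assumed to vary like the others. DESeq2, no filter on low counts and Leiden resolution 2 gave 0 calls in each class. With the title number as a replicate block the count was 0 in all 3 classes, with 6 higher and 2 lower unadjusted in beta-like, 3 and 1 in alpha-like and 24 and 3 in delta-like cells. Deviations of same-numbered libraries correlated at 0.034, 0.062 and 0.116 in beta-like, alpha-like and delta-like cells. With 2 pairs this does not settle whether the numbers pair the libraries, and they were treated as unpaired. The share of beta-like cells of mutant B with a member was 51.3% with thinning to 1000 counts and 85.8% with none. Their summed level of the 7 members, 1054 CPM, was 1107 with at most 10% mitochondrial counts. It was 973 with beta cells taken by insulin share and 1101 without Ins1 and Ins2 in the total. The sum hides opposite moves under the mitochondrial limit, which left 363 of 710 cells. Rarres1, Dapl1, Cldn11 and Zfp773 moved to 1.61, 1.38, 1.16 and 1.15 times the value given. Spink13, Synpr and Aass moved to 0.907, 0.82 and 0.819 times. By Spearman's rho 4 of the 8 genes most like the members were retained. Pairs of members found together more often than the product of their shares numbered 12 of 21 in the main setting. They numbered 9 with thinning to 1000 counts and 10 at Leiden resolution 2. Leaving out the low-depth cluster 19, chosen after seeing the data, gave a share of 66.5%, a summed level of 1060 CPM and 12 pairs. Rarres1 rests on the fewest counts of the members. With 2 libraries a label, depth is not the only limit.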

Other observations

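Cldn11 was also found outside the endocrine classes. In cluster 17, whose leading genes include C1qc and Csf1r of macrophages and S100a8 of granulocytes, it had 0, 0, 2 and 55 counts in pair A and then pair B, WT before mutant. The 55 counts lay in 11 of 44 cells, with 11 in the highest, and gave 373 CPM. The floor of 3 counts stands at 35.2 and 27.2 CPM in the 2 libraries with 0. This cluster was chosen after its values were seen, and the part of doublets or free RNA in the value was not tested. In mesenchymal-like cells Cldn11 stood at 4.82, 4.99, 3.32 and 27.1 CPM, from 3, 2, 2 and 33 counts.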
